A study of Zea mays with 50 samples.

Results

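The genes described here are 9 rows of the deposited expression table, taken from a list of row IDs out of 30213 rows. The list holds 5 genes of the mesophyll side of the pathway and 4 of the bundle sheath side, and each of the 9 was found. The mesophyll genes are pdk1 (GRMZM2G306345), PPDK2 (GRMZM2G097457, listed as the cytosolic form of PPDK), pep1 (GRMZM2G083841, PEPC), CA1 (GRMZM2G121878, carbonic anhydrase) and mdh6 (GRMZM2G129513, NADP-malate dehydrogenase). The bundle sheath genes are me3 (GRMZM2G085019, NADP-malic enzyme), PCK1 (GRMZM2G001696, phosphoenolpyruvate carboxykinase), ssu1 (GRMZM2G098520) and rbcS (GRMZM2G113033), both for the small subunit of Rubisco. The names CA1 and PCK1 come from the list, because the gene table at hand gives these rows no symbol. The aliases of pdk1 name both a C4 and a cytosolic PPDK, so the chloroplast and cytosolic transcripts of that gene are 1 row and cannot be told apart. Reads may be shared within the pairs pdk1 and PPDK2 or ssu1 and rbcS, and the sources used here do not say how shared reads were counted.

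In the cells of a C4 leaf, carbon dioxide is first hydrated by carbonic anhydrase and fixed onto phosphoenolpyruvate by its carboxylase (PEPC) in the mesophyll. The product is reduced to malate by NADP-malate dehydrogenase and moves to the bundle sheath, where NADP-malic enzyme and, in maize, also phosphoenolpyruvate carboxykinase release the carbon dioxide to Rubisco. Pyruvate orthophosphate dikinase (PPDK) then remakes phosphoenolpyruvate in the mesophyll. In leaves grown in the dark, most of these genes stay far below their level in green leaves.

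Polyadenylated RNA was sequenced from B73 maize protoplasts, leaf cells whose wall had been removed, which transiently expressed 1 of 23 putative regulators or GFP alone. Seedlings grew in constant darkness at 25 °C, and each of the 4 protoplast isolations (preps) pooled leaves of more than 10 etiolated plants aged 10 to 12 days. Preps 1 and 3 received 11 regulators: bHLH103, CSD4, DOF25, HSF2, NAC29, NAC119, OCL4, TCP23, ZFL2, ZHD5 and ZIM13. Preps 2 and 4 received the other 12: ABI5, bHLH97, DOF7, EREB50, EREB69, GBP15, MYB131, NAC25, OFP9, WRKY81, ZFL1 and ZHD4. GFP alone was expressed in each of the 4 preps. The control carried GFP behind the 35S promoter, and each regulator was fused to GFP, ZFL2 at its C-terminus and the others at their N-terminus. A regulator therefore had 2 libraries, from separate preps, set against 2 GFP libraries of the same preps. These were bulk samples of all protoplasts in a prep, so fewer cells of a type and less RNA per cell cannot be told apart. The labels do not say how many cells took up the construct, so a change in those cells is averaged with cells that did not.

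The libraries held 6830505 to 11875644 recovered reads, except those of EREB69 cells with 28153231 reads in prep 2 and 29950351 in prep 4. The labelled tissue was checked against other leaf cell markers. Transcripts of ocl1, an epidermal homeodomain gene, had a median of 15.8 RPKM (reads corrected for the row's length and the library's depth), and gl1, a gene of the cuticle, had a median of 0.222 RPKM. The bundle sheath and vein list, matched by alias, held 6 rows, called vein rows below. They ran from a median of 16.3 RPKM for Nkd1, with Nkd2 and sut2 close to it at 15.4 and 15.7 RPKM, down to 3.40 RPKM for sut4. Lowest were 2.06 RPKM for sut1, a sucrose transporter gene of phloem loading, and 1.70 RPKM for scl23, of the SCARECROW-like family. Whether Nkd1, Nkd2 and sut2 mark vein cells in these leaves was not tested. The light-harvesting genes lhcb6, lhcb4 and cab-m9 had medians of 0.668, 0.458 and 0.736 RPKM, while Cab-m7 had 14.8 RPKM. Of the markers set for a dark-grown leaf, the phytochrome gene phyA2 had a median of 4.67 RPKM. The other, por, for protochlorophyllide reductase, had a median of 2.005 RPKM (1.144 to 3.012).

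The 9 genes spanned levels from 518.5 to 0.0566 RPKM, and the enzymes of the same pathway were far from equal. Transcripts of pdk1 led with 173 ± 84.9 RPKM (SD, n = 50 libraries here and for the next 8 levels), at the 98.6th percentile of all rows by mean. Across libraries pdk1 ran from 59.2 RPKM in NAC29 cells of prep 1, over a median of 151.9 RPKM, to 518.5 RPKM in MYB131 cells of prep 2. PCK1 followed with 34.3 ± 10.8 RPKM, from 16.0 over a median of 31.9 to 63.5 RPKM. The lowest PCK1 value was that of GFP cells in prep 4 and the highest that of TCP23 cells in prep 3.

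NADP-malate dehydrogenase transcripts of mdh6 followed with 24.1 ± 5.61 RPKM, from 13.9 over a median of 22.7 to 36.0 RPKM. The rbcS row averaged 18.3 ± 13.6 RPKM, from 5.41 over a median of 13.04 to 64.7 RPKM, and CA1 averaged 17.8 ± 3.82 RPKM, from 11.3 over a median of 16.6 to 27.0 RPKM. The near-equal means of rbcS and CA1 hide different spreads: the coefficient of variation was 74.5% for rbcS and 21.5% for CA1. The malic enzyme gene me3 averaged 9.44 ± 1.62 RPKM, from 6.70 over a median of 9.10 to 14.1 RPKM, and its coefficient of variation of 17.1% was the smallest of the 9. The other small subunit gene, ssu1, averaged 5.63 ± 3.55 RPKM, from 1.88 over a median of 4.18 to 17.3 RPKM, with a coefficient of variation of 63.0%.

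The remaining mesophyll genes lay near the floor of the data. PPDK2 averaged 0.683 ± 0.363 RPKM, from 0.164 over a median of 0.623 to 1.90 RPKM, and reached 1 RPKM in 9 of 50 libraries. The PEPC gene pep1 averaged 0.392 ± 0.179 RPKM, from 0.0566 over a median of 0.373 to 0.806 RPKM, and stayed under 1 RPKM in all 50 libraries. These levels correspond to 6 to 130 recovered reads per library for PPDK2 (median 22) and 2 to 41 for pep1 (median 11.5), against 1777 to 26588 for pdk1. By mean level pep1 stood at the 5.9th percentile of all rows. It did not reach 1 RPKM in 2 libraries, the filter for testing, so 8 of the 9 genes were tested.

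**Figure D1:**
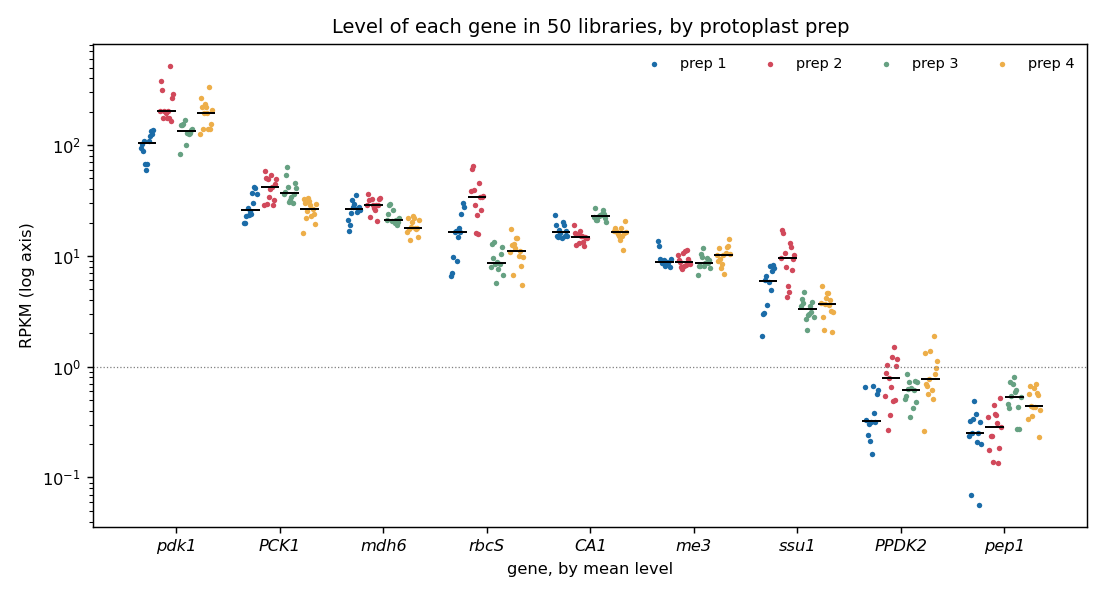
RPKM (log axis) of each of the 9 genes in 50 libraries, with 1 point per library, colours for the 4 preps, black bars for prep medians and a dotted line at 1 RPKM. The pdk1 row has the highest median in each prep, PPDK2 lies mostly below 1 RPKM, pep1 lies entirely below it, and the 2 Rubisco small subunit rows are highest in prep 2.

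Most steps in this order held library by library. Transcripts of pdk1 exceeded those of PCK1 in 50 of 50 libraries, PCK1 exceeded mdh6 in 44, and mdh6 exceeded rbcS in 40. The neighbours rbcS and CA1 changed order between libraries: rbcS was the higher in 18 of 50, with a ratio from 0.242 to 5.16. Their order differed by prep. The medians of rbcS and CA1 were 34.0 and 14.7 RPKM in prep 2 and 16.5 and 16.5 RPKM in prep 1. They were 8.62 and 23.1 RPKM in prep 3 and 10.98 and 16.5 RPKM in prep 4. CA1 exceeded me3 in 49 libraries, me3 exceeded ssu1 in 41, ssu1 exceeded PPDK2 in 50, and PPDK2 exceeded pep1 in 42.

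Other rows of the same enzyme families stood above several of the C4 genes. The PEPC family row pep7 had a median of 59.9 RPKM, and its ratio to pep1 had a median of 167 with a range of 58.4 to 1100. The row pep (GRMZM2G473001) exceeded pep1 too, by a median ratio of 16.2. Transcripts of pck2, a second carboxykinase row with a median of 473.6 RPKM, exceeded PCK1 by a median ratio of 13.8, which varied little, from 11.3 to 18.7. The malic enzyme row me2 exceeded me3 by a median ratio of 13.5, from 8.10 to 20.1.

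Rows with other malate dehydrogenase symbols, mdh4 and mdh2, stood closer to mdh6. Their symbols do not give the cofactor, so they may not be forms of the NADP enzyme. Transcripts of mdh4 exceeded mdh6 in 50 of 50 libraries with a median ratio of 1.76, and mdh2 exceeded it in 42 of 50 with a median ratio of 1.33. Within the listed pairs, pdk1 exceeded PPDK2 by a median ratio of 270 (143 to 664) and rbcS exceeded ssu1 by a median ratio of 3.14 (2.21 to 4.52), each in 50 of 50 libraries. Rows of close sequence within these families may also share reads.

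Added over genes, the 5 mesophyll rows came to a median of 197 RPKM (104 to 553) and the 4 bundle sheath rows to 59.5 RPKM (40.2 to 146). The mesophyll sum over the bundle sheath sum had a median of 3.05 (1.99 to 6.83). Its median was 2.27 in prep 1, 2.88 in prep 2, 3.05 in prep 3 and 4.51 in prep 4. A single gene held most of the mesophyll sum: pdk1 made up a median of 79.0% of it (57.1 to 93.8%). Without pdk1, the ratio had a median of 0.707 (0.326 to 1.09). These sums describe transcripts and were not used to estimate cell numbers.

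The study expressed these factors as putative regulators of phased small RNA loci of anthers, and each was compared here with GFP cells for the leaf genes above. Of 184 tests, 8 genes by 23 regulators, 2 were called higher and 0 lower. A call needed a limma adjusted p (Benjamini-Hochberg, within each comparison) below 0.05 and a log2 change of 1 or more in size. The background was 0.197% of all tests called higher and 0.0111% called lower. Both calls were PPDK rows in MYB131 cells, where 2.21% of all rows were called higher and 0.142% lower. The 23 comparisons share GFP libraries within each prep pair, so they are not independent of each other.

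Transcripts of pdk1 stood at 518.5 RPKM in prep 2 and 336.1 RPKM in prep 4 of MYB131 cells, against 201.8 and 124.8 RPKM in GFP cells of the same preps. Each MYB131 value was the highest of the 13 libraries of its prep. The next values were those of bHLH97 cells, at 378.1 RPKM in prep 2 and 268.3 RPKM in prep 4. On the log2(RPKM + 0.5) scale pdk1 rose by 1.39 ± 0.36 (SE) in MYB131 cells (limma, adjusted p = 0.0204), with within-prep changes of 1.36 and 1.43. The means were 427.3 ± 129.0 RPKM in MYB131 cells and 163.3 ± 54.4 RPKM in GFP cells (SD, n = 2 each).

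PPDK2 stood at 1.52 RPKM in prep 2 and 1.90 RPKM in prep 4 of MYB131 cells, against 0.544 and 0.265 RPKM in GFP cells. These values rest on 65 and 61 recovered reads in MYB131 cells and on 18 and 9 reads in GFP cells. MYB131 was again the highest of 13 libraries in both preps. PPDK2 rose by 1.30 ± 0.33 (SE) on the log2(RPKM + 0.5) scale (limma, adjusted p = 0.0181), and the pseudocount of 0.5 understates the change of so low a row. The part of reads shared with pdk1 in the PPDK2 rise was not tested.

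Both calls were lost in some fits that left out 1 library. Without the MYB131 library of prep 2 the pdk1 change was 1.08 and that of PPDK2 1.42. Without the GFP library of prep 4 they were 1.05 and 1.07. The PPDK2 call was also lost without the MYB131 library of prep 4, at 1.17. These fits had no prep term, so their changes also hold the difference between preps 2 and 4. Within preps 2 and 4 PPDK2 rose by 0.95 and 1.65. With all libraries and prep as a block both rows were called (limma, adjusted p = 0.00105 for pdk1 and 0.00691 for PPDK2). With adjustment over all 23 comparisons and no block, both calls were lost (limma, adjusted p = 0.164 for pdk1 and 0.148 for PPDK2). Set against the mean of the other regulators of preps 2 and 4 in place of GFP, pdk1 rose by 1.03 (adjusted p = 0.014 by limma) and PPDK2 differed by 0.78 (adjusted p = 0.053).

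**Figure D2:**
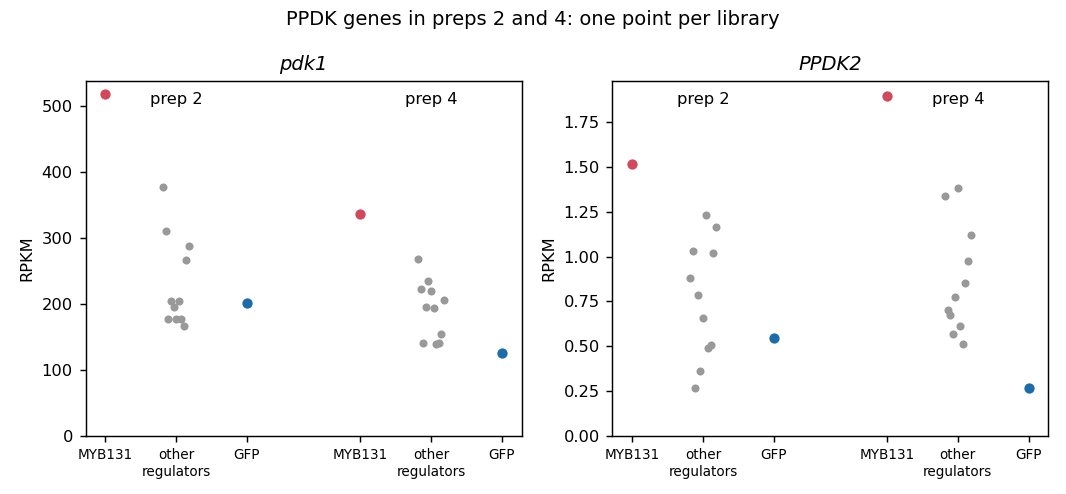
RPKM of pdk1 (left) and PPDK2 (right) in preps 2 and 4, with 1 point per library for MYB131 (red), the other 11 regulators (grey) and GFP (blue). MYB131 cells are highest in each prep, at 518.5 and 336.1 RPKM for pdk1 and 1.52 and 1.90 RPKM for PPDK2, and GFP cells are the lowest of prep 4 for both rows.

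The other changes of pdk1 did not pass the test. The nearest was that in bHLH97 cells, with 378.1 and 268.3 RPKM against 201.8 and 124.8 RPKM in GFP cells and a log2 change of 1.00 ± 0.36 (SE; limma, adjusted p = 0.542). The lowest pdk1 change was −0.19 in NAC29 cells, where the preps went opposite ways: 59.2 RPKM in NAC29 cells against 93.2 RPKM in GFP cells of prep 1, and 100 RPKM against 82.8 RPKM in prep 3. For PPDK2 the lowest change was −0.38 in NAC29 cells, with 0.314 and 0.350 RPKM against 0.653 and 0.511 RPKM in GFP cells (limma, adjusted p = 0.712).

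Carbonic anhydrase transcripts of CA1 had their lowest change in the same MYB131 cells. CA1 stood at 12.4 RPKM in prep 2 and 11.3 RPKM in prep 4 of MYB131 cells, against 19.2 and 16.7 RPKM in GFP cells. MYB131 cells were the lowest of 13 libraries in both preps. The log2 change of −0.58 ± 0.25 (SE) missed the test (limma, adjusted p = 0.253). With prep as a block the adjusted p was 0.0116 by limma, at the same size, which is below the log2 change of 1 that a call needs. The 23 changes of CA1 ran from −0.58 to −0.01, the last in OCL4 cells, and GFP cells had the highest CA1 level of preps 1 and 2, at 23.3 and 19.2 RPKM.

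NADP-malate dehydrogenase and malic enzyme transcripts had small changes with every regulator. For mdh6 they ran from −0.30 ± 0.39 (SE) in OFP9 cells to 0.36 ± 0.39 in bHLH97 cells, and for me3 from −0.38 ± 0.25 in EREB50 cells to 0.19 ± 0.25 in MYB131 cells. The EREB50 value of me3 came from 7.62 and 7.75 RPKM, against 10.2 and 10.2 RPKM in GFP cells (limma, adjusted p = 0.939). GFP cells themselves were the highest of prep 1 for me3, at 13.5 RPKM, and the lowest of prep 3, at 6.70 RPKM. The me3 changes of the 11 regulators of these preps thus had opposite signs in the 2 preps. They ran from −0.74 in DOF25 cells to −0.14 in OCL4 cells in prep 1. In prep 3 they ran from 0.20 in bHLH103 cells to 0.76 in NAC29 cells.

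PCK1 had a positive change with all 23 regulators, from 0.03 in OCL4 cells to 1.00 ± 0.47 (SE) in bHLH97 cells, none of which passed the test. In bHLH97 cells PCK1 stood at 57.8 and 32.3 RPKM, against 28.7 and 16.0 RPKM in GFP cells (limma, adjusted p = 0.578). GFP cells had the lowest PCK1 level of preps 2 and 4. Since the 23 comparisons use the same few GFP libraries, the shared sign is not 23 separate observations.

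The Rubisco small subunit rows had the widest changes without a call. In DOF25 cells rbcS stood at 29.8 RPKM in prep 1 and 12.1 RPKM in prep 3, against 6.55 and 7.86 RPKM in GFP cells, a log2 change of 1.35 ± 0.95 (SE; limma, adjusted p = 0.548). There ssu1 stood at 8.30 and 3.82 RPKM, against 1.88 and 3.56 RPKM in GFP cells, a change of 0.99 ± 0.81 (adjusted p = 0.619 by limma). GFP cells were the lowest of prep 1 for both rows. At the other end were GBP15 cells, with a change of −0.57 ± 0.95 for rbcS and −0.48 ± 0.81 for ssu1. The SE of these rows was close to the log2 change of 1 that a call needs. The fit had 2 libraries a group and no prep term, so the SE also holds the differences between preps. For CA1, with the same 2 libraries a group, the SE was 0.25.

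The PEPC row pep1 could be fitted only without the filter on low values, and there its changes ran from −0.23 ± 0.35 (SE) in HSF2 cells to 0.43 ± 0.35 in NAC29 cells. In NAC29 cells it had 0.493 and 0.806 RPKM, against 0.237 and 0.464 RPKM in GFP cells (limma, adjusted p = 0.667).

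**Figure D3:**
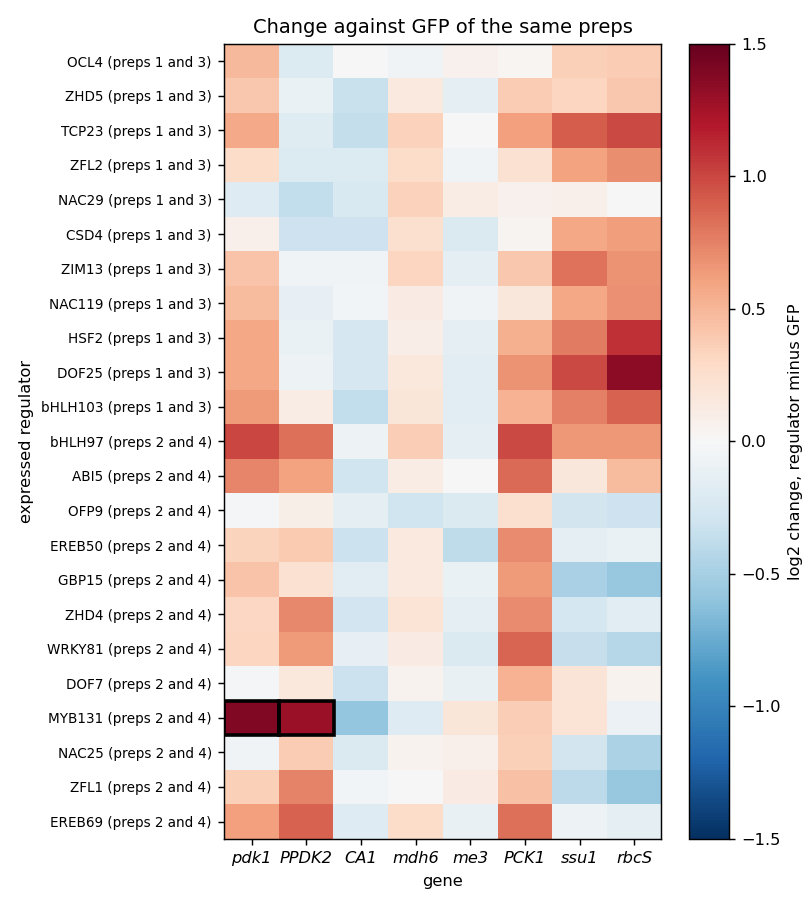
Log2(RPKM + 0.5) change of 8 genes (columns) for 23 regulators minus GFP (the rows, in the order of the deposited table, with their preps in brackets), in red where higher and blue where lower than GFP. Black frames mark the 2 calls, pdk1 at 1.39 and PPDK2 at 1.30 in MYB131 cells.

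Levels were next compared between preps. The same 12 constructs were expressed in preps 1 and 3 and the same 13 in preps 2 and 4, so each prep difference was fitted with construct as a block. Each prep is 1 isolation, so these tests compare the preps at hand and no condition, and libraries of a prep share their cells.

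In prep 4 both Rubisco small subunit rows fell relative to prep 2. The rbcS row ran from 5.41 over a median of 10.98 to 17.3 RPKM in prep 4, against 15.6 over 34.0 to 64.7 RPKM in prep 2. It was lower in prep 4 for all 13 constructs, although the ranges overlapped, with a log2 difference of −1.57 ± 0.20 (SE; limma, adjusted p = 5e-06). The ssu1 row ran from 2.04 over a median of 3.69 to 5.40 RPKM in prep 4, against 4.21 over 9.67 to 17.3 RPKM in prep 2. It was lower for all 13 constructs too, by −1.26 ± 0.19 (limma, adjusted p = 2.9e-05). These 2 of 8 genes were called lower, against 0.672% of all rows, and 0 were called higher, against 0.0996%.

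At an adjusted p below 0.05 and any size, 35% of all rows differed between preps 4 and 2, 18.5% lower and 16.6% higher. Among the 8 genes, 5 were lower by that measure, the 2 Rubisco rows included, and 0 were higher, so the share of lower genes is to be read against 18.5%. PCK1 ran from 16.0 over a median of 26.7 to 33.2 RPKM in prep 4, against 28.7 over 42.2 to 57.8 RPKM in prep 2, and was lower in 13 of 13 constructs (−0.64 ± 0.11, SE; limma, adjusted p = 0.000105). The mdh6 row was lower in 13 of 13 constructs as well (−0.63 ± 0.10; limma, adjusted p = 2.9e-05), with a median of 17.9 RPKM in prep 4 and 28.8 RPKM in prep 2.

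For pdk1 the prep 4 median was 194.9 RPKM and the prep 2 median 203.9 RPKM, lower in prep 4 for 11 of 13 constructs (−0.31 ± 0.11, SE; limma, adjusted p = 0.023). Leaving out a GFP library of either prep gave an adjusted p of 0.0515 by limma, and leaving out a ZFL1 library gave 0.0566. CA1, me3 and PPDK2 had differences of 0.11, 0.13 and 0.09, which did not pass the test.

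Between preps 3 and 1 no gene reached a log2 difference of 1, against 0.0889% of all rows called higher and 0.0676% called lower. At an adjusted p below 0.05 and any size, 3 of the 8 genes were higher in prep 3 and 1 was lower. Of all rows 15.5% passed, 7.68% higher and 7.83% lower. CA1 ran from 20.4 over a median of 23.1 to 27.0 RPKM in prep 3, against 14.4 over 16.5 to 23.3 RPKM in prep 1, and was higher in 11 of 12 constructs (0.43 ± 0.06, SE; limma, adjusted p = 1.7e-05). PCK1 rose by 0.48 ± 0.12 in prep 3 (limma, adjusted p = 0.00611), with medians of 37.2 RPKM in prep 3 and 26.1 RPKM in prep 1. For pdk1 the medians were 132.9 RPKM in prep 3 and 105.5 RPKM in prep 1, a rise of 0.42 ± 0.11 (limma, adjusted p = 0.010) in 10 of 12 constructs.

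The Rubisco rows had lower medians in prep 3. The rbcS row had a median of 8.62 RPKM in prep 3 and 16.5 RPKM in prep 1, with a difference of −0.67 ± 0.21 (SE; limma, adjusted p = 0.0276), lower in 10 of 12 constructs. For ssu1 the medians were 3.31 RPKM in prep 3 and 5.94 RPKM in prep 1, and the difference of −0.56 ± 0.20 did not pass the test (limma, adjusted p = 0.0568). Leaving out 1 library gave rbcS differences of −0.81 to −0.55, and the adjusted p was above 0.05, at 0.0516 to 0.07 by limma, without a library of ZFL2, ZIM13, HSF2, DOF25 or bHLH103 in either prep. The ssu1 difference had instead an adjusted p below 0.05, of 0.021 to 0.0495, without a library of GFP, OCL4, ZHD5, GBP15, ZHD4 or WRKY81. Without the filter on low values, pep1 was higher in prep 3 in 11 of 12 constructs, with medians of 0.538 RPKM in prep 3 and 0.252 RPKM in prep 1 (0.44 ± 0.10; limma, adjusted p = 0.00354).

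**Figure D4:**
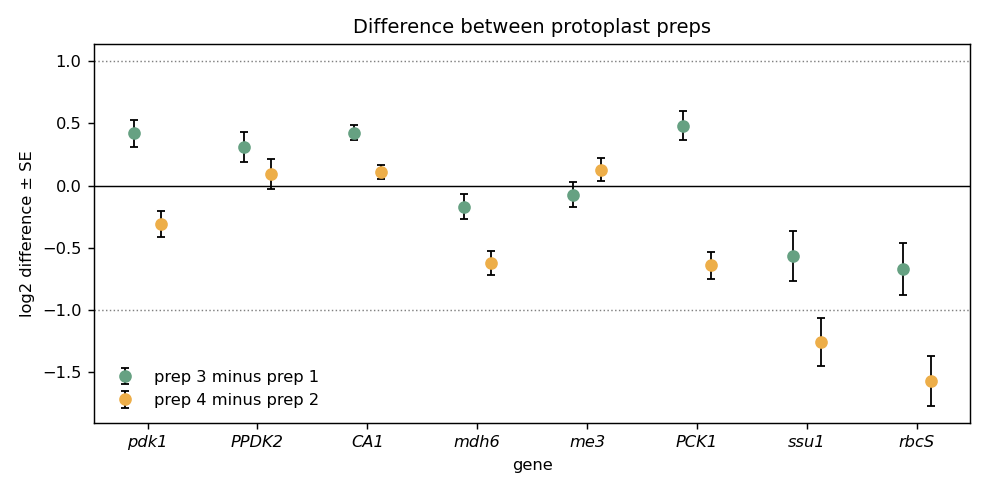
Log2(RPKM + 0.5) difference ± SE between preps for 8 genes, prep 3 minus prep 1 (green, 12 constructs) and prep 4 minus prep 2 (yellow, 13 constructs), with dotted lines at a difference of 1 in either direction. Only rbcS (−1.57) and ssu1 (−1.26) of prep 4 minus prep 2 lie beyond a dotted line.

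Other genes of the pathway and of photosynthesis were followed through 7 lists matched by alias, which hold 53 rows, of which 49 were tested. Against GFP, 1 of 1127 tests was called (0.208% of all tests in either direction), and it was ocl4 in OCL4 cells. That row is the expressed construct itself, so its call was set by the design and is no result about the list. No other row of the C4 cycle, Calvin cycle, light harvesting, photosystem, greening, vein or epidermis lists was called with any regulator by limma. The C4 cycle list, with 13 rows tested, had a median log2 change of −0.06 over 299 tests.

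Between preps 4 and 2, more rows of the photosystem and electron transport list fell than rose: of 13 rows, 2 were called lower, against 0.672% of all rows. At an adjusted p below 0.05 and any size 9 were lower and 0 higher, against 18.5% and 16.6% of all rows. The most abundant row of the list, the ferredoxin row fdx3, was among the 9, at 224.0 RPKM in prep 4 and 268.6 RPKM in prep 2 (−0.26 ± 0.07, SE; limma, adjusted p = 0.00419). The largest was fdx2, a ferredoxin gene, with a median of 3.00 RPKM in prep 4 and 10.1 RPKM in prep 2 (−1.70 ± 0.22, SE; limma, adjusted p = 5e-06). A row with the alias PGR5 (GRMZM2G121494) was the other call, at −1.01 ± 0.21 (limma, adjusted p = 0.000605), and it fell short of a log2 difference of 1 with a pseudocount of 1 (−0.95), with rescaling (−0.998) or without the EREB69 libraries (−0.98). The list's median difference was −0.25, beside −0.005 over all rows tested. The list was matched by alias, and which of its ferredoxin rows, fdx3 included, serve photosynthesis was not tested.

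In the C4 cycle list, which leaves out the 9 genes, 6 of 13 rows were higher and 3 lower in prep 4 at any size. Of these rows 0 were called. Of all rows 16.6% were higher and 18.5% lower. The carboxykinase row pck2 was lower at a median of 375.3 RPKM in prep 4 and 554.0 RPKM in prep 2 (−0.81 ± 0.10, SE; limma, adjusted p = 5e-06), as PCK1 was. The PEPC family row pep7 was higher, at 82.5 RPKM in prep 4 and 50.3 RPKM in prep 2 (0.70 ± 0.10; limma, adjusted p = 1.2e-05), and so was the PEPC kinase row PPCK2, at 46.0 and 31.7 RPKM (0.68 ± 0.10; limma, adjusted p = 1.1e-05). Of the 3 Calvin cycle rows tested, 1 was higher and 2 lower. The most abundant, Pgk-2, for phosphoglycerate kinase, was higher in 13 of 13 constructs, at 175.4 RPKM in prep 4 and 137.7 RPKM in prep 2 (0.39 ± 0.06; limma, adjusted p = 5.3e-05). Rca, for Rubisco activase, was lower in prep 4 at 1.91 RPKM, against 4.24 RPKM in prep 2 (−0.83 ± 0.17; limma, adjusted p = 0.000466). Cab-m7, for a chlorophyll-binding protein, was lower by −0.83 ± 0.16 (limma, adjusted p = 0.000201), with 13.5 RPKM in prep 4 and 28.1 RPKM in prep 2. Of the 6 vein rows 0 differed in this comparison. Of the 4 epidermis rows tested, ocl1 was higher at 15.9 RPKM in prep 4 and 12.6 RPKM in prep 2 (0.36 ± 0.05; limma, adjusted p = 2.4e-05), and ocl3 was lower (−0.34 ± 0.07; adjusted p = 0.000907). Summed over the 6 vein rows, the level was 51.9 to 59.4 RPKM in prep 4 and 48.3 to 59.6 RPKM in prep 2, and over the 4 epidermis rows beside ocl4 it had a median of 19.7 RPKM in prep 4 (at most 23.7) and of 17.6 RPKM in prep 2 (15.1 to 19.8). Transcripts of ocl4 were listed at 0 in 29 of the 48 libraries of other constructs. Nkd1, Nkd2 and sut2 held most of the vein sums, so these sums may not follow vein content. The part of these marker levels in the results for the 9 genes was not tested.

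Between preps 3 and 1, pck2 was again on the side of PCK1, higher in prep 3 with a median of 520.3 RPKM, against 354.7 RPKM in prep 1 (0.61 ± 0.11, SE; limma, adjusted p = 0.000329). The row pdrp1, whose symbol is used for the regulatory protein of PPDK, was higher by 0.28 ± 0.08 (adjusted p = 0.0104 by limma). In all, 2 of 13 rows of the C4 cycle list were higher and 4 lower in prep 3 at any size. Of all rows 7.68% were higher and 7.83% lower. Of the 13 photosystem and electron transport rows 2 were higher and 4 lower, with 0 called, against the same shares of all rows. Their median difference was −0.107, beside −0.006 over all rows tested. Of the 6 vein rows 1 was higher and 2 lower. Of the 4 epidermis rows tested 0 were higher and 1 was lower, ocl3, with a median of 1.87 RPKM in prep 3 and 2.71 RPKM in prep 1 (−0.41 ± 0.08, SE; limma, adjusted p = 0.00067). Their summed levels were 49.5 to 66.5 RPKM in prep 3 and 50.1 to 64.9 RPKM in prep 1 for the vein rows, and for the epidermis rows beside ocl4 the median sum was 19.7 RPKM in prep 3 (at least 18.6) and 20.8 RPKM in prep 1 (16.4 to 27.6).

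Once the mean of each prep was removed, the 2 Rubisco small subunit rows moved together most closely. Their log2 levels had a Pearson r of 0.93 over 50 libraries, and of 0.94, 0.97, 0.85 and 0.89 within preps 1, 2, 3 and 4. The PPDK rows had an r of 0.69, or 0.61 without the MYB131 libraries, and mdh6 and PCK1 had an r of 0.63. The me3 row went against the Rubisco rows, with an r of −0.47 to ssu1 and −0.48 to rbcS over 50 libraries, but this varied by prep. Within preps 1, 2, 3 and 4 it was −0.81, −0.24, −0.25 and −0.54 to ssu1, and −0.76, −0.36, −0.04 and −0.59 to rbcS. These values are descriptions over libraries that share preps, and like rows may share reads.

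**Figure D5:**
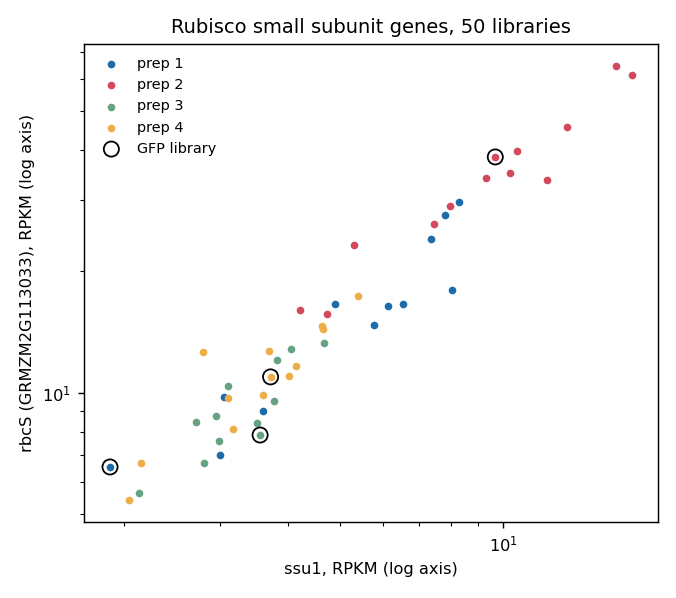
RPKM of rbcS (GRMZM2G113033) against ssu1 in 50 libraries on log axes, coloured by prep, with the 4 GFP libraries circled. The points lie along 1 line, prep 2 fills its upper end with up to 17.3 RPKM for ssu1 and 64.7 RPKM for rbcS, and the GFP library of prep 1 is the lowest for ssu1.

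Among 1279 named rows of at least 5 RPKM on average, the patterns most like each gene were sought by the same correlation over 50 libraries. For pdk1 they were PAL1, a phenylalanine ammonia-lyase gene (r = 0.80, and 0.74 without the MYB131 libraries), and a row aliased myb42 (r = 0.77, and 0.70 without them). PCK1 was closest to pck2 (r = 0.88) and MST1 (r = 0.88). Both Rubisco rows were closest to a phytoene synthase row (PSY1, r = 0.85 for ssu1 and 0.86 for rbcS) and to lkrsdh1 (r = 0.80 and 0.87). For mdh6 the closest were ccp1 (r = 0.77) and sbe1, a starch branching enzyme gene (r = 0.76). The values for PPDK2 (0.57), pep1 (up to 0.51), CA1 (up to 0.65) and me3 (up to 0.69) were lower.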

How the data were processed

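Values are RPKM as deposited by the authors, 1 column per library. The submitters' processing notes name HISAT2 2.1.0, featureCounts of Subread 1.6.3, edgeR 3.20.9 and the build B73 RefGen_v3, without saying which step each served. The labels' protocols name a directional poly(A) library kit. How the counting used strand or shared reads is not given in the sources used here.

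Whole reads were recovered from the RPKM steps for 30213 of 30213 rows (within 0.05 reads), and gave the depths and the per-library scaling factors of 0.939 to 1.09. Reads without molecular identifiers are not independent molecules.

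Groups were compared with limma 3.58.1 (R 4.3.3) on log2(RPKM + 0.5), over 28122 rows that reached 1 RPKM in 2 or more libraries, in 1 fit of 25 groups with trend (25 residual degrees of freedom). p-values were adjusted by Benjamini-Hochberg over all rows within a comparison. The spread is that between 2 preps a group. Prep differences added a prep term for each prep pair. The replicate numbers are prep numbers by the labels, so they pair libraries. As a check, prep differences of single groups were compared pair by pair over rows by their correlation, with medians of 0.131 (−0.21 to 0.497, 66 pairs) for preps 1 and 3 and 0.253 (−0.047 to 0.474, 78 pairs) for preps 2 and 4.

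Gene names came from NCBI RefSeq's gene table of another build, so no positions are printed; 14595 row IDs matched. The genes, lists and tests were chosen with earlier results of these data known, and 22 rows were dropped from the lists by name after levels were seen. Named rows were all 9 genes, called rows of each list, the highest row of each list by level, the 2 named rows most like each gene, and the regulators with the highest or lowest change or a call; list rows at a lower level or a smaller difference, such as sut1, scl23 and Rca, were chosen after their values were seen. The alternatives were other pseudocounts, no filter, separate fits, rescaling, prep as a block, other regulators or a line by place in the table as reference (the last added after seeing the data), adjustment over all comparisons, limma-voom on recovered reads, and leaving out libraries.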

Additional observations from a re-analysis of the deposited data

Results flagged for a closer look

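The rbcS level in GFP cells had 1 library far from the others. It was 38.4 RPKM in prep 2, against 6.55, 7.86 and 10.95 RPKM in preps 1, 3 and 4, and the gap to the nearest value took 0.862 of the range, above Dixon's critical value for 4 samples. Such a gap was looked for in 9 genes, and chance gives about 1 in 20 groups. The 13 libraries of prep 2 had a median of 34.0 RPKM, so the GFP library stood close to the rest of its prep.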

How the results depend on the processing

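Over 99 results and 4502 alternatives, 4250 kept their direction and side of the threshold. Of the 2 higher calls against GFP, 1 was left with the other regulators as reference, with a line by place in the table, with a pseudocount of 0.1 and with a pseudocount of 1, and 0 were left with adjustment over all 23 comparisons. Leaving out 1 library, in fits without a prep term, gave 0 to 2. For pdk1 in MYB131 cells the adjustment over all comparisons gave 1.39 (limma, adjusted p = 0.164), and leaving out 1 library gave 1.05 to 1.74. For PPDK2 in MYB131 cells the values without a call were 0.784 with the other regulators as reference, 0.779 with the line, 1.30 with adjustment over all comparisons (limma, adjusted p = 0.148), 1.89 with a pseudocount of 0.1 and 0.951 with a pseudocount of 1. Leaving out 1 library gave 1.07 to 1.52. With prep as a replicate block both were called, pdk1 with limma's adjusted p = 0.00105 and PPDK2 with 0.00691, and the block moved no count of calls of the 9 genes or the listed rows against GFP. Over all rows it moved the calls in MYB131 cells to 706 higher and 78 lower, against 621 and 40 without it.

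Between preps 3 and 1, genes lower at any size numbered 2 without the replicate block and 2 with limma-voom, against 1, and 0 to 2 when 1 library was left out. Without the block pdk1 kept its differences of 0.42 (prep 3 minus prep 1) and −0.31 (prep 4 minus prep 2), with adjusted p of 0.0885 and 0.13 by limma, above 0.05 in both. Between preps 4 and 2, 1 gene (pep1) was higher at any size without the filter, against 0. Of the other photosynthesis and marker rows, 1 was called against GFP without the filter, against 0 beside ocl4. Between preps 3 and 1, 1 such row was called with limma-voom, against 0. Between preps 4 and 2, 2 were called, but 1 with a pseudocount of 1, with rescaling and without the EREB69 libraries, 4 with limma-voom, and 1 to 3 when 1 library was left out. Over all rows, 28 were called higher and 189 lower between preps 4 and 2. These counts were 16 and 144 with a pseudocount of 1, 32 and 185 with rescaling and 34 and 193 without EREB69. With limma-voom they were 54 and 408. Between preps 3 and 1 limma-voom gave 59 and 44 over all rows, against 25 and 19.

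Signs that turned belonged to changes that were not called in any setting. For CA1 in OCL4 cells (−0.008) they were 0.231 with the other regulators, 0.173 with the line and 0.003 with rescaling, and leaving out 1 library gave −0.252 to 0.236. PCK1 in OCL4 cells (0.03) gave −0.334 with the other regulators, −0.135 with the line, and −0.437 to 0.497 with 1 library left out. Leaving out 1 library also turned pdk1 in NAC29 cells (−0.566 to 0.186), mdh6 in bHLH97 cells (−0.044 to 0.771) and in OFP9 cells (−0.705 to 0.109), ssu1 and rbcS in GBP15 cells (−1.118 to 0.15 and −1.457 to 0.309), and me3 between preps 3 and 1 (−0.11 to 0.008). The causes were not tested. Median levels and the ratio of sums moved by less than 1 SD. Tests on counts with DESeq2 were planned for a table of counts, which this is not, and were left out.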

Other observations

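The level of several genes followed the order of the libraries in the deposited table in prep 1. Spearman's rho with place was 0.88 for rbcS, 0.88 for PCK1, 0.81 for ssu1 and 0.66 for pdk1 over 12 libraries. In preps 2, 3 and 4 the same 4 genes had values from −0.48 to −0.01. GFP comes first in the table, and what the order stands for is not given in the sources used here.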
